A study of Mus musculus with 9 samples.

Results

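The 134 cell barcodes described here were chosen by their counts of 5 genes, Car1, Vamp5, Pbk, Cox6b2 and Myb, from 6997 barcodes of dissociated mouse trigeminal ganglia. A barcode was taken as a member when it held 200 to 8500 genes with a unique transcript (UMI) and when at least 2 of these 5 markers had a UMI. It also had to have a UMI of fewer than 2 of the B cell genes Vpreb3, Igll1 and Vpreb1 and of at most 2 of the neuronal genes Tubb3, Scn9a, Snap25, Nefl, Nefm and Uchl1. Of the 6464 barcodes within the limits on genes, members made up 2.07% (1.74 to 2.45%, exact binomial 95% interval). There were 167 barcodes with 2 or more markers, of which the B cell limit removed 17 and the neuronal limit 19, with 3 removed by both.

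All tissue, labelled as trigeminal neurons, came from wild-type FVB/N mice of both sexes, 3 to 5 weeks old by the study's methods and 3 to 6 weeks by the labels, and was labelled as 9 samples. By the study's methods, ganglia of 20 to 30 mice went into each Dropseq run. After enzymatic dissociation the cells passed a Percoll gradient and a depletion of non-neuronal cells, so the blood cells seen here are those that came through a step meant to remove them. The barcodes do not name their sample, and all of them were therefore treated as 1 pooled sample. With 1 pooled sample there is no replicate and so no test, the spread between mice or samples is unknown, and every interval below is a 95% interval that covers counting error only.

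The table held 30491529 UMIs, with 1000 to 190815 UMIs and a median of 2031 per barcode. Members had 1001 to 15310 UMIs, with a median of 1770, and a median of 899.5 genes. In the table, 6 barcode sequences appeared 2 times each with different suffixes, and none of these was a member. The barcodes of 8 members held an N, and those of 2 members differed at 1 base from another barcode.

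Red blood cells arise from progenitors that keep dividing while they fill with haemoglobin. Gata1 and Klf1, transcription factors of this lineage, switch on the genes for haem, globin and the red cell membrane, whereas Myb, a transcription factor of early progenitors, is known to decline as the cells mature. Early progenitors are also rich in ribosomes, whose parts they stop making late in maturation. The trigeminal ganglion is not known as a place where blood is formed.

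Levels are given as CPM, the count of a gene in a set of barcodes scaled to a total of 1000000 UMIs, and shares as the percentage of barcodes with a UMI of the gene. Members were compared with 4 sets. The rest were the other 6330 barcodes within the limits on genes (median 2215 UMIs). An erythroid set of 170 barcodes (median 1527.5 UMIs) had 2 or more of Hemgn, Tal1 and Kel, all of them genes of developing red cells, and was not in the member group, while 37 members met both rules. A precursor B set of 94 barcodes (median 1486.5 UMIs) had 2 or more of the 3 B cell genes and at most 2 of the neuronal genes, a limit that the erythroid set shared. A neuron set of 3820 barcodes (median 3213.5 UMIs) had 4 or more of the 6 neuronal genes and served as the background for blood genes, since free RNA in a droplet can add a blood transcript to any barcode. To set shares side by side at the same total, each barcode was also thinned at random to 1000 UMIs, which left out no barcode. This matches all UMIs and not those outside globins, which are fewer in the erythroid set, where a thinned barcode held a median of 346 genes against 615.5 in members.

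The values that chose the members are a description and no finding. Car1, the gene of carbonic anhydrase 1 (chr3:14766216-14808368, minus strand, GRCm38), was seen in 105 of the 134 members. Over members its level ran from 0 to 11.7 UMIs per 1000, with a median of 1.44, and 29 members had none. Cox6b2, an isoform of a cytochrome c oxidase subunit (chr7:4751792-4753094), was seen in 98 members, and Vamp5, a vesicle-associated membrane protein (chr6:72368794-72380468), in 51. Myb (chr10:21124935-21160984) was seen in 51 members and Pbk, a mitotic kinase (chr14:65805837-65817822), in 42. Exactly 2 markers were seen in 82 members, 3 in 30, 4 in 17 and all 5 in 5. The most frequent pair was Car1 with Cox6b2, in 79 members, and 35 members had this pair and no other marker.

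Just outside the threshold lay 312 barcodes with exactly 1 marker, which was Cox6b2 in 87, Vamp5 in 73, Pbk in 63, Car1 in 46 and Myb in 43. At least 3 genes of a list of 23 erythroid regulators and receptors were seen in 69 of the 82 members just inside and in 159 of the 312 barcodes just outside. A share of 3% or more of UMIs on pituitary hormone genes was found in 10 of the 82 and in 42 of the 312.

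The working name of these barcodes, dividing blood progenitors, was checked against genes that the rule did not use. Most members carried genes of early red cells and of DNA replication, and 10 carried pituitary hormone genes, 8 of these without Car1. Defining genes of granulocytes, platelets, macrophages and T cells were at 0 or seen in few members. The markers thus go with the red cell lineage for most members and not with all blood progenitors. Of the 124 members below this hormone share, 43 had 10% or more of UMIs on globin genes. Of these 43, 23 also met the rule of the erythroid set. The values that most depend on the 10 hormone-bearing members are given without them too.

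Among the regulators of the red cell program, Klf1 (chr8:84901928-84905291) was seen in 75 members at 434 CPM (369 to 509) and Gata1 (chrX:7959260-7978071) in 41 members at 155 CPM (117 to 202). The Klf1 level was 705 CPM in the erythroid set, 15.9 in the precursor B set and 1.58 in the neuron set. The Gata1 level was 186 CPM in the erythroid set and 0.385 in the neuron set, and no UMI of it was seen in the precursor B set, which allows up to 15.9 CPM. At 1000 UMIs per barcode, Klf1 was seen in 35.1% (27.0 to 43.8%) of members, 50% of the erythroid set and 0.236% of the neuron set. Either gene was seen in 90 of the 134 members. The share of members with Gata1 was 30.6%, and it was 8.21% when 2 UMIs were needed and 48.1% with 3 or more markers. Tal1, a partner of Gata1 in red cell progenitors that helped to choose the erythroid set, was seen in 43 members at 172 CPM, and Gfi1b, a repressor of the lineage, in 26 at 87.5 CPM.

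Of 4 further genes of the lineage, Car2 and Blvrb were seen in more members than Klf1, and Rhd and Ermap in fewer. Car2, the gene of carbonic anhydrase 2, on chromosome 3 like Car1 (chr3:14886273-14900770), was seen in 118 members at 3662 CPM, against 8981 in the erythroid set, 260 in the precursor B set and 46.6 in the neuron set. Without the 10 hormone-bearing members it was seen in 116 of 124, at 3932 CPM. Per 1000 UMIs of a member its level ran from 0 to 15.5 with a median of 3.52. Blvrb, a biliverdin reductase abundant in red cells, was seen in 113 members at 1447 CPM (1325 to 1578), against 60.5 in the neuron set. The blood group gene Rhd was seen in 61 members at 378 CPM and the erythroid membrane gene Ermap in 66 at 451 CPM, and both were lower than in the erythroid set, at 1440 and 931 CPM. No other of the 15 carbonic anhydrase genes was seen in more than 2 members.

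All 23 genes of the erythroid list were seen in members, with a median of 8 genes per member and a range of 0 to 18. At least 3 were seen in 121 of the 134 (90.3%). Without the hormone-bearing members the median was 9, and at least 3 were seen in 119 of 124 (96.0%). The neuron set, at a higher depth, had a median of 2, and at least 3 were seen in 1128 of its 3820 barcodes (29.5%). In the precursor B set at least 3 were seen in 14 of 94 (14.9%). A ratio of CPM of at least 2 was taken as a call, and 21 of the 23 were called higher than in the rest, with a median ratio of 11.8. Over all 13097 genes with a UMI in at least 50 barcodes, 21.6% were called higher in members than in the rest. The rest include the erythroid set.

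**Figure D1:**
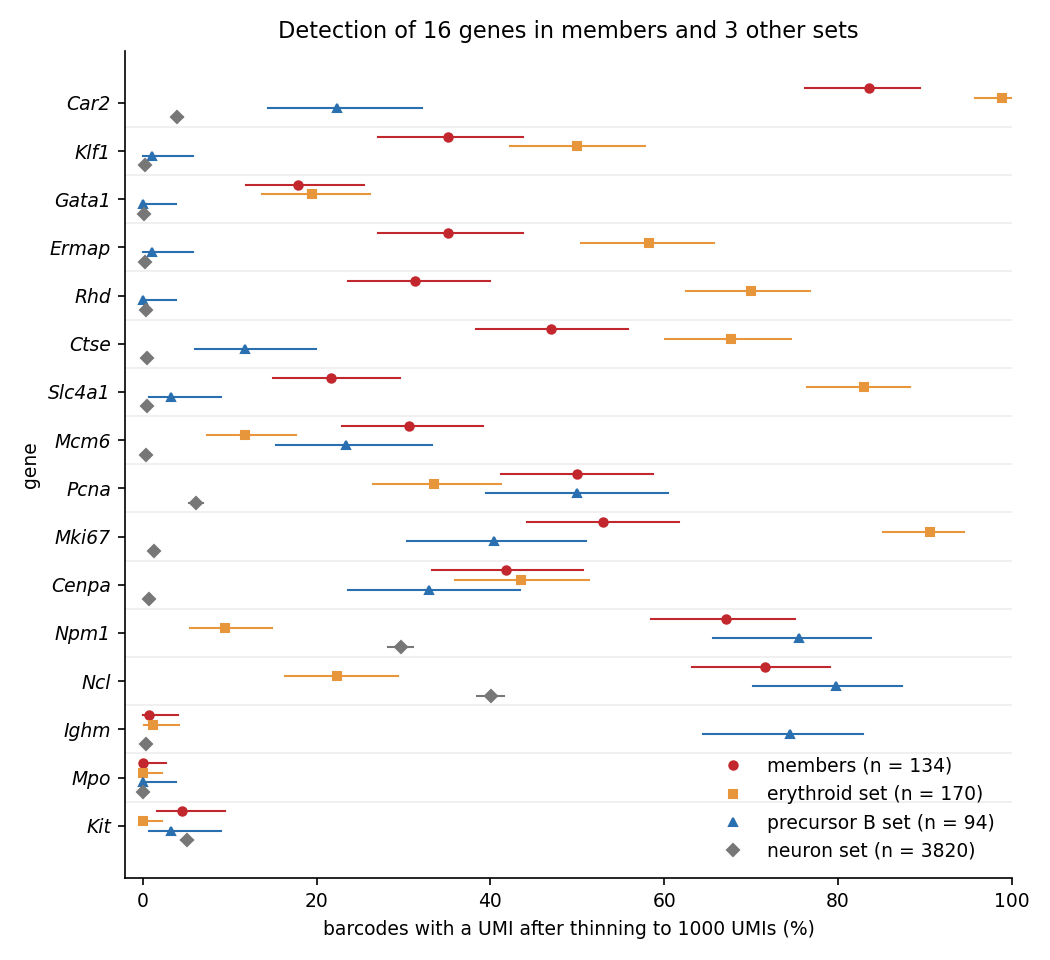
Share of barcodes with a UMI of each of 16 genes after every barcode was thinned to 1000 UMIs, in the 134 members (circles), the erythroid set (squares), the precursor B set (triangles) and the neuron set (diamonds). Lines are exact binomial 95% intervals. Members share Klf1, Gata1 and Ermap with the erythroid set and Npm1 and Ncl with the precursor B set, and Ighm and Mpo lie near 0 in members.

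Haem genes were higher in members than in the rest as well, but not higher than in the erythroid set. Of the haem and iron list, 15 of 19 tested genes were called higher in members than in the rest, with a median ratio of 4.19, beside 21.6% of all genes. The list summed to 11665 CPM in members and 22528 in the erythroid set. Against that set 1 of 18 tested genes was called higher and 8 lower. With globin UMIs taken out of the totals, 1 was higher and 15 lower. Cpox, which acts late in haem synthesis, was seen in 86 members at 719 CPM, Alad, which acts early in it, in 88 at 838 CPM, and Tmem14c, a mitochondrial importer of a haem precursor, in 93 at 954 CPM. Alas2, the erythroid enzyme of the first step, was seen in 53 members at 395 CPM, whereas its counterpart in other tissues, Alas1, was seen in 1. Across members, the genes whose detection was most like that of Klf1 were Alad and Blvrb, with a phi coefficient of 0.404 and 0.403 over 134 barcodes. Car2 was at 0.369 and Abcb10, a mitochondrial transporter, at 0.367. The barcodes differ in depth, which all genes share, and the coefficients are a description.

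Gata factors are known to bind the letters GATA with an A or T before and an A or G after them, and the form with an A after them was looked for in the 250 bases before the RefSeq start of each gene (GRCm38.p6). The words searched were AGATAA and TGATAA, on both strands, and so also TTATCT and TTATCA. The sequences below show a match, in capitals, before Klf1, Rhd and Ermap and before Ces2g, a carboxylesterase gene that is among the genes with the highest ratio in members. Each is read 5′ to 3′ along the strand of the gene.
Klf1, chr8:84901834-84901933, plus strand: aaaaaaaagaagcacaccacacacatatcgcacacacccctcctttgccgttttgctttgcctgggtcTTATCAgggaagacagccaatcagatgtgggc
Rhd, chr4:134864425-134864524, plus strand: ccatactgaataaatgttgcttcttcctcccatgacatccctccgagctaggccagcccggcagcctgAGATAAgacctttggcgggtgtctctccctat
Ermap, chr4:119190031-119190130, minus strand: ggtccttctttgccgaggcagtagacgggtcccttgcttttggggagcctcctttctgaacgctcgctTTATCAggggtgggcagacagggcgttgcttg
Ces2g, chr8:104961612-104961711, plus strand: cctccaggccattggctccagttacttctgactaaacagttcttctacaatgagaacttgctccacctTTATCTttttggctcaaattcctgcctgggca

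A match was found for 10 of the 19 erythroid genes that have an entry in the promoter table (52.6%), for 7 of 25 of the 30 genes with the highest ratio to the rest (28.0%), for 1 of 14 replication licensing genes (7.14%) and for 0 of 3 rule markers. Over all 27025 genes of the table the share was 18.8%. The matches are a description of these letters and say nothing of binding.

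The 30 genes with the highest ratio of CPM to the rest, outside the rule's genes, were led by Slc25a21, a mitochondrial carrier (chr12:56712634-57197472). It was seen in 30 members at 121 CPM (87.8 to 163), against 1.41 CPM in the rest, a ratio of 86.0 (54.6 to 136). Fermt3, an activator of integrins in blood cells, followed with 36 members and a ratio of 49.9 (34.0 to 72.4), and Ces2g with 38 members and 46.9 (32.5 to 67.0). Gata1 and Klf1 stood at 43.6 and 32.2. The Klf1 ratio was 13.1 with the mean of each barcode's CPM, 20.4 without members that met the erythroid set's rule and 50.2 with limits of 500 to 7500 genes. None of these 5 genes except Klf1 was seen in a member with a hormone share of 3% or more.

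Most other genes of that 30 are placed below by their known roles, a grouping made after their values were seen. Replication licensing and S phase genes were Cdc6, which loads the MCM helicase (ratio 41.9), Cdt1, its partner (24.7), Mcm6 (28.2), Mcm3 (23.9), Mcm5 (22.7), Mcm2 (20.5), Dtl, Tk1 and Uhrf1. Genes of chromosomes in division were Cenpa, the centromeric histone (20.7), Spc24, Cenph, Cks2 and Esco2. Membrane and red cell genes were Ermap (23.2), Rhag, Cldn13, Kcnn4, a potassium channel of red cells (33.4), Ctse, a protease of the red cell lineage (22.4), and Tal1. Syce2 (38.8), Tnfaip2 (37.3), AI662270 (32.4), Slc38a5 (26.2) and Aldh1a1 (23.2) were not placed in a group. Ctse was seen in 83 members at 632 CPM, against 28.2 in the rest.

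The label calls these barcodes dividing, and genes of every phase of division were seen. Mki67, the proliferation antigen (chr7:135689784-135716361), was seen in 98 of 134 members at 959 CPM (860 to 1067), against 11.5 CPM in the neuron set. At 1000 UMIs it was seen in 53.0% (44.2 to 61.7%) of members, 90.6% of the erythroid set, 40.4% of the precursor B set and 1.31% of the neuron set. Since Pbk, a mitotic gene, helped to choose the members, the 92 members without a Pbk UMI were taken apart, and 61 of them had Mki67, at 822 CPM. Hmgb2, a chromatin protein of dividing cells, was seen in 119 members and Pcna, the sliding clamp of DNA polymerase, in 94.

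Replication genes stood at levels near those of precursor B barcodes. The 19 licensing genes, among them Mcm2 to Mcm7, summed to 2962 CPM in members, 2709 in the precursor B set, 1973 in the erythroid set and 172 in the neuron set. With globin UMIs taken out of the totals the order of members and erythroid set turned, with 3200 against 3710. Against the rest 18 of the 19 were called higher, with a median ratio of 13.2, beside 21.6% of all genes. Against the precursor B set 2 were called higher and 0 lower, with a median ratio of 1.08. Over all 7809 genes of that comparison, 15.1% were called higher in members and 18.4% lower. The 27 DNA synthesis genes summed to 5617 CPM in members and 6150 in the precursor B set, and 1 of the 27 was called higher and 3 lower.

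Of members, 108 had a UMI of at least 1 of Mcm2 to Mcm7 and 85 of at least 1 of the mitotic genes Ccnb1, Ccnb2, Cdc20 and Plk1, and 71 had both. After thinning, the shares were 69.4% for the MCM genes and 45.5% for the mitotic genes. In the erythroid set, where globins took a median of 50.8% of UMIs, they were 37.6% and 57.6%, and in the neuron set 3.43% and 1.02%. No phase was called for single barcodes.

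The kinase and cyclin list of mitosis summed to 4942 CPM in members, close to the 5307 of the precursor B set and below the 9185 of the erythroid set. Ube2c, which drives the exit from mitosis, was seen in 79 members at 604 CPM, against 2500 in the erythroid set. Of 16 tested genes of cell cycle inhibition and exit, 5 were called higher in members than in the rest, with a median ratio of 0.93, beside 21.6% of all genes. Among inhibitors, Cdkn1b was seen in 25 members at 93.1 CPM and Cdkn2d in 26 at 102 CPM, against 537 and 684 CPM in the erythroid set.

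Globin UMIs differed widely between members. The 7 globin genes took from 0.0788% to 63.5% of a member's UMIs, with a median of 1.21%. The near-identical copies Hbb-bs and Hbb-bt, and Hba-a1 and Hba-a2, cannot be told apart with certainty in such counts, so globins were summed. As a background of free globin RNA, the median share was 0.186% in the neuron set and 0.592% in the precursor B set. It was 50.8% in the erythroid set. Of the members, 62 had under 1% globin and 16 had 30% or more.

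For a description of this spread, the 124 members with a hormone share below 3% were divided into ranges of globin share, below 3% (69 members), from 3 to 10% (12) and 10% or more (43). These ranges are no cell types, and 5 members lay between 2 and 4% and 4 between 8 and 12%. The median depth was similar in the 3 ranges, with 1750, 1768.5 and 1733 UMIs. In the middle range, 1 member held 13021 of the 34688 UMIs, so pooled levels of that range lean on this member. Of the high range, 23 of 43 members also met the rule of the erythroid set, against 9 of 69 in the low range. Because globin takes room from all other genes, levels along these ranges are scaled to 1000000 non-globin UMIs (non-globin CPM).

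The erythroid list held 7171 (6806 to 7551) non-globin CPM in the low range, 11346 (10222 to 12560) in the middle, 28629 (27327 to 29976) in the high range and 48064 (46955 to 49192) in the erythroid set. Without Hemgn, Tal1 and Kel, which chose the erythroid set, the levels were 6938, 10614, 26013 and 41384. Alas2 stood at 19.9, 366, 1891 and 4242 non-globin CPM in this order. Slc4a1, the band 3 anion exchanger of mature red cells, was not seen in the 69 members of the low range, which allows up to 14.8 CPM of all UMIs, and reached 1576 (1282 to 1916) non-globin CPM in the high range. It was seen in 0, 4 and 34 members of the 3 ranges. Klf1 was seen in 36 of the 69 members of the low range, at 372 (293 to 467), and Gata1 in 23, at 154 (105 to 219).

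Ribosome biogenesis genes had the opposite order. Their list of 26 genes held 18797 (18203 to 19405) non-globin CPM in the low range, 17476 in the middle, 6523 (5910 to 7183) in the high range and 2788 (2526 to 3070) in the erythroid set. Npm1, a nucleolar chaperone, stood at 5120, 4239, 1371 and 357, and Ncl, nucleolin, at 4549, 4453, 1402 and 687. Hspd1, a mitochondrial chaperone, went from 1589 in the low range to 425 in the high range. The median share of the 26 genes in a barcode's non-globin UMIs was 1.83%, 1.41% and 0.326% in the 3 ranges and 0.164% in the erythroid set. The pooled level of the high range thus lies above that of its median member. Across the 124 members, Spearman's rho between the globin share and the share of this list in non-globin UMIs was −0.72. It was −0.54 for ribosomal protein genes, 0.67 for the erythroid list and −0.07 for total UMIs. The points share libraries, and the correlations are given as a description.

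**Figure D2:**
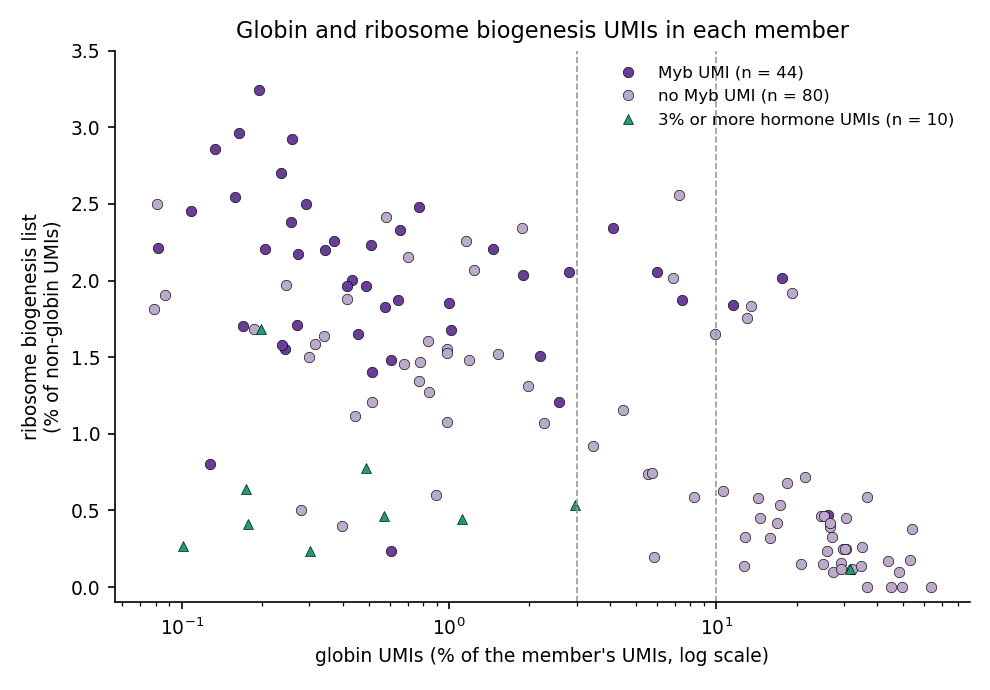
Each of the 134 members by the share of globin genes in its UMIs (x axis, log scale) and the share of the 26 ribosome biogenesis genes in its non-globin UMIs (y axis). Members with a Myb UMI are dark, members without are pale, triangles are the 10 with a hormone share of 3% or more, and dashed lines are drawn at 3% and 10% globin. Points run from upper left to lower right, with 3 dark points at 10% globin or more.

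Not all genes of division ran one way along the ranges. The licensing list held 2518 (2303 to 2747) non-globin CPM in the low range, 5924 (5340 to 6554) in the high range and 3710 (3407 to 4033) in the erythroid set, so the high range of members stood above both. The DNA synthesis list did likewise, with 4892, 10903 and 8127. Mitosis genes instead kept the order of the erythroid list, and their kinase and cyclin list held 3963, 9233 and 17271. Mki67 stood at 502 (409 to 609), 2489 (2116 to 2909) and 7138 (6714 to 7580). E2f2, a transcription factor of the last divisions, was seen in 3 of 69 members of the low range and 20 of 43 of the high range, at 14.9 and 425 non-globin CPM.

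**Figure D3:**
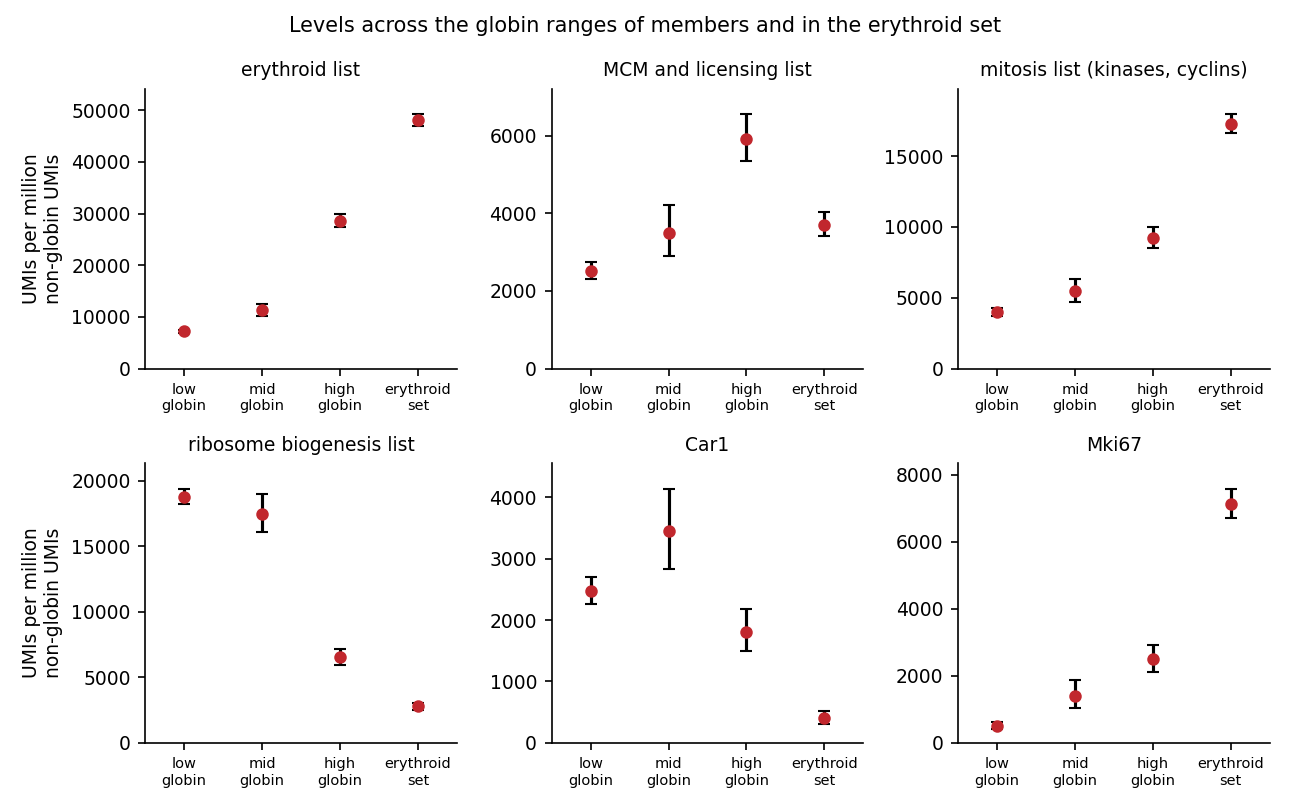
Level of 4 gene lists and of Car1 and Mki67 in the low (n = 69), mid (n = 12) and high (n = 43) globin ranges of members and in the erythroid set (n = 170), in UMIs per 1000000 non-globin UMIs. Points are pooled levels and bars are exact Poisson 95% intervals. In the mid range, 1 member holds 13021 of the 34688 UMIs. The erythroid and mitosis lists are highest in the erythroid set, ribosome biogenesis is highest in the low and mid ranges, and licensing genes in the high range. Car1 chose the members, so its lower level in the erythroid set follows from the rule.

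The list of stem and progenitor regulators held 750 (635 to 879) non-globin CPM in the low range, 884 in the middle, 1119 (874 to 1411) in the high range and 1582 in the erythroid set, so as a whole it was not highest at the low end. The 5 single genes named next ran against this sum and do not stand for the list, whose rising genes are not named here. Of the 5, Srgn is from the primary granule list. The 5 genes were seen in a smaller share of the high range than of the low range. The low range also holds more non-globin UMIs per member on average and a median of 1006 genes, against 779. Myb, which chose members and is given as a description, was seen in 38 of 69 members of the low range, 3 of 12 of the middle and 3 of 43 of the high range. It was not seen in the erythroid set, which allows up to 10.7 CPM, and stood at 594 CPM in the precursor B set. Kit, the receptor of stem cell factor, was seen in 12, 2 and 0 members of the ranges and in 5.03% of the neuron set after thinning, against 4.48% of members and 0% of the erythroid set. The neuron set is no background for Kit, since some sensory neurons are known to express it. Gata2, a progenitor factor, was seen in 4 members, all of the low range, and Cdk6, a kinase of progenitors, in 16 at 62.1 CPM, against 0.898 CPM in the neuron set. Cdk6 was seen in 11, 2 and 2 members of the ranges, so its share, like that of Kit, was close in the low and middle ranges. Srgn, a proteoglycan of blood cell granules, was seen in 46 members at 316 CPM (260 to 380), and its non-globin CPM was 487 in the low range and 78.8 in the high range.

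A split by Myb is a description only, since Myb helped to choose the members and its detection follows depth. The 44 members with Myb and a hormone share below 3% had a median globin share of 0.472%, against 10.2% in the 80 without Myb. They were deeper, with a median of 2610.5 UMIs against 1650. Their ribosome biogenesis share of non-globin UMIs was 2.03% in the median, against 0.654%. Klf1 was seen in 22 of the 44 at 275 CPM and in 51 of the 80 at 675 CPM.

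Of the list of stem and progenitor regulators, 16 of 23 genes were seen in members. The other 7, Cd34, Flt3, Hlf, Procr, Ly6a, Spi1 and Cebpa, had no UMI in any member, which allows up to 8.46 CPM for each (3 counts). Of the granulocyte genes, Mpo was seen in 1 member with 2 UMIs, and Prtn3, Ctsg, Ms4a3 and Gfi1 were at 0. Of the secondary granule list, 5 of 15 genes were seen, in 4 members in all and at 53.6 CPM, against 59.5 in the rest and 4.02 in the neuron set, and all 10 UMIs of Ltf, which codes for lactoferrin, were in 1 member. The primary granule list summed to 1058 CPM because it also holds Srgn and Calr, which other cells express. Platelet genes Pf4, Gp1ba, Gp1bb, Ppbp and Vwf were at 0, and Itga2b was seen in 2 members. The mast cell list had Il1rl1 in 8 members, while Cpa3, the macrophage genes Csf1r, C1qa and Tyrobp and all 18 genes of the T and NK cell list were at 0.

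B cell genes were at 0 or in 1 to 3 members, apart from Cd24a and Tcf3, which many cell types express and which was seen in 23 members. Cd79a, Cd79b, Rag1, Rag2, Il7r and Ms4a1 had no UMI, and Ighm, Lef1, Pou2af1 and Dntt were each seen in 1 member. A single member held 8 UMIs of this list outside Cd24a and Tcf3, beside the 2 UMIs of Mpo and 3 UMIs of the erythroid list. The B list still summed to 2037 CPM, because Cd24a, which red cell precursors also express, was seen in 100 members at 1910 CPM. Its non-globin CPM was 829 in the low range, 7059 in the high range and 11615 in the erythroid set.

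Against the erythroid set, the members differed first in scale. Globins took 46.8% of all UMIs of that set and 7.42% of those of members. Of the 7477 genes tested, 50.4% were called higher in members and 8.89% lower, with a median log2 ratio of 1.03. With globin UMIs taken out of both totals, 28.8% were called higher and 17.7% lower, with a median log2 ratio of 0.23. Ratios below are on CPM, and those without globins are given where named.

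The gene with the highest ratio, Lyar, codes for a nucleolar protein and was seen in 58 members at 429 CPM (363 to 503) and in 1 barcode of the erythroid set with 1 UMI, a ratio of 120 (21.2 to 4760), or 68.8 without globins. Among the next 14, Mki67ip, Cebpz, Dnajc2 and Ppan were seen in 44, 43, 51 and 33 members and in 1 erythroid barcode each. Mt2, a metallothionein, was seen in 65 members at 821 CPM, against 25.1 CPM, a ratio of 32.7 (15.7 to 82.2), or 18.8 without globins. Prl was also among the first 15, at 5157 CPM, but stood at 102 CPM in the 124 members with a hormone share below 3%, against 136 in the erythroid set.

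The ribosome biogenesis list was called higher in members in 25 of 25 tested genes, with a median ratio of 8.15, and in 22 of 25 without globins, with a median of 4.68. The list of mitochondrial folding and import was called higher in 18 of 20, and in 14 of 20 without globins. Of the erythroid list, 4 of 23 genes were called higher and 12 lower on CPM, and 4 higher and 18 lower without globins. The list includes Hemgn, Tal1 and Kel, which chose the erythroid set, and of the other 20 genes 4 were higher and 9 lower on CPM, and 4 higher and 15 lower without globins. One of the 4 is Bcl11a, a repressor of embryonic globin genes (141 against 10.7 CPM), and another is Ldb1, an adaptor of Gata1 and Tal1 (76.2 against 10.7 CPM). Of the licensing list, 2 of 19 were called higher and 0 lower on CPM, and 1 higher and 1 lower without globins. The change of scale moves all genes by the same factor.

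In the opposite direction, Tmcc2 was seen in 68 barcodes of the erythroid set at 684 CPM and in 7 members at 28.2 CPM, a ratio of 24.2 (12.9 to 51.4), or 42.2 without globins. Slfn14 was seen in 34 barcodes of that set at 190 CPM and in 0 members, which is at least 22.4-fold higher. Trim10, Gch1 and Slc4a1 stood 10.6, 9.88 and 7.69 times higher there, or 18.4, 17.2 and 13.4 times without globins. Trim10 and Slc4a1 are known from late red cell precursors. These genes and those that chose the erythroid set tend to be seen in the same barcodes, so their ratios describe that choice as well.

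Against the precursor B set, genes of the red cell lineage were higher in members. B cell genes were lower, which the rules of both groups set in part, since members could have at most 1 of the 3 B cell genes that chose the precursor B set. Ermap was seen in 66 members and in 1 precursor B barcode with 1 UMI, a ratio of 85.1 (15.1 to 3384). Rhd had no UMI in the precursor B set, and members stood at least 23.8-fold higher. On the other side, Ighm stood at 1771 CPM in the precursor B set against 2.82 in members, and Mzb1, Lef1 and Cd79b at 700, 562 and 572 CPM against 2.82, 2.82 and 0. The ribosome biogenesis list had a median ratio of 1.06, with 2 of 25 genes called higher and 0 lower, and the erythroid list a median ratio of 9.76, with 19 of 23 called higher and 0 lower, beside 15.1% of all genes called higher and 18.4% lower.

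Pituitary hormone genes set 10 of the 134 members apart (7.46%, 3.64 to 13.3%). In these 10, Gh, Prl, Pomc and Cga, the genes of growth hormone, prolactin, the corticotropin precursor and the shared subunit of the glycoprotein hormones, took 3.23% to 28.3% of UMIs, and in the other 124 at most 0.428%. No member lay between 1% and 3%. Of the 10, 7 belong to the 8 members whose only markers were Pbk and Myb. The remaining 3 had Car1 with Vamp5, Car1 with Cox6b2, and Pbk with Cox6b2.

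The 8 of these members that had Pbk also held other pituitary genes. Pou1f1, the transcription factor of growth hormone and prolactin cells, was seen in 8 members, all among the 10, at 698 CPM there. Scg2 and Chga, granule proteins of endocrine cells, and Epcam, an epithelial adhesion gene, were each seen in 8 of the 10. Klf1 was seen in 2 of the 10 and Gata1 in 0, while Mki67 was seen in 9. The remaining 2 had Car1 and Car2 and no Epcam UMI, and held 7 and 56 UMIs of the erythroid list.

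**Figure D4:**
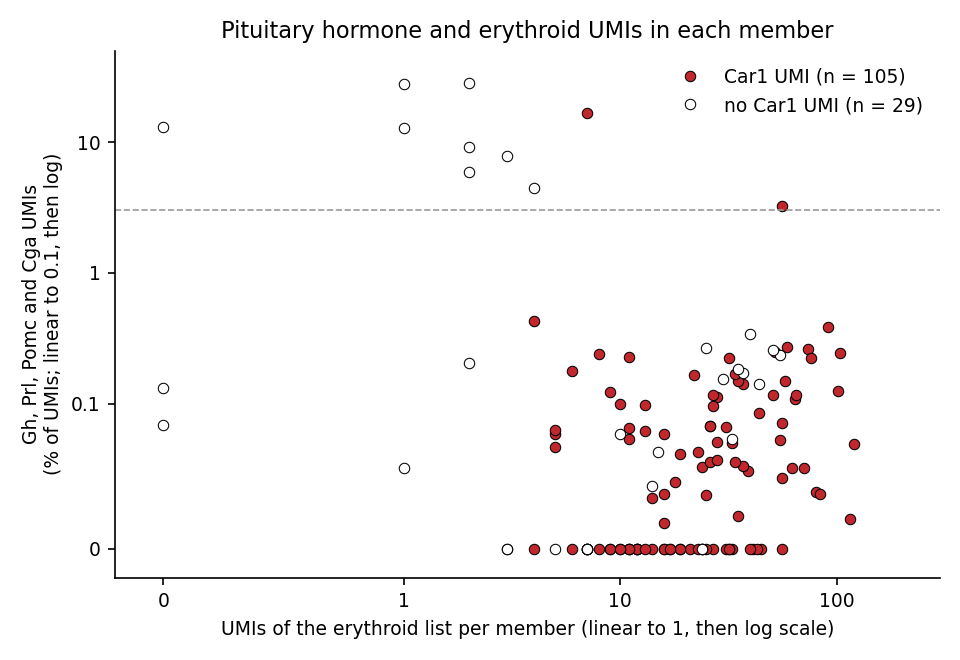
Each of the 134 members by its UMIs of the 23 erythroid genes (x axis) and the share of Gh, Prl, Pomc and Cga in its UMIs (y axis). Both axes are linear near 0 and logarithmic above, filled circles have a Car1 UMI, and the dashed line marks 3%. Of the 10 members above the line, 8 have no Car1 UMI and at most 4 erythroid UMIs.

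Fewer than 3 genes of the erythroid list were seen in 13 members. Of these, 8 were hormone-bearing, 1 had Car1, and 4 had neither. Among the 4 was a member with 5394 UMIs, 9 of them of Epcam, and a member with 1178 UMIs, a globin share of 35.1% and no UMI of the erythroid list. A further member, with 2150 UMIs, held all 45 UMIs of Rgs5, a gene of pericytes, together with 16 UMIs of Epcam and no hormone UMI. It had Cox6b2 and Myb but no Car1, 7 UMIs of the erythroid list and a globin share of 0.605%, and it is counted in the low range.

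Genes of neurons were low in members by the rule, and 55 members had none of the 6 neuronal genes, 53 had 1 and 26 had 2. Neuronal genes outside the rule, among them Prph, Calca and Sncg, summed with 12 others to 386 CPM in members, 648 in the erythroid set and 21629 in the neuron set. Glial genes summed to 604 CPM in members and 748 in the erythroid set. Gh was seen in 84 members, but in the 124 below the hormone threshold it stood at 712 CPM. The median share of the 4 hormone genes was 0.0569% in these 124, 0.123% in the erythroid set and 0.0735% in the precursor B set. It was 0.00345% in the neuron set, of which 73 of 3820 barcodes had a share of 3% or more.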

How the data were processed

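Trigeminal ganglia of FVB/N mice were profiled by Dropseq in 9 labelled samples, and the authors deposited 1 table of UMI counts per gene and barcode, with no sample named. Per the submitters' processing notes they used bcl2fastq 2.17, STAR 2.5.3a and Seurat 1.4.0.16 with mm10, and the deposited counts hold barcodes with at least 1000 UMIs, without normalization. UMIs collapse PCR copies, so a count stands for a transcript rather than a read.

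From these counts, levels were computed as UMIs per 1000000 (CPM), with exact Poisson intervals, shares with exact binomial intervals, and ratios with the conditional binomial interval. Pooled levels weight deep barcodes more. A ratio of 2 or more among genes with a UMI in at least 50 barcodes was called. Thinning to 1000 UMIs used seed 17. No doublet caller was run, and the limits on B cell and neuronal genes were the only step against doublets. The script was tested on simulated data. The members and gene lists were chosen with earlier results of these data known. Besides the lists, the genes named were the 30 with the highest ratio to the rest (UMI in at least 20% of members), 15 in each direction against the erythroid and precursor B sets, and 10 by phi with Klf1. A few genes in single members were named after their values were seen. Other limits on markers, genes and depth, and other scalings, were tried. Sequences came from RefSeq (GRCm38.p6) and positions from GENCODE. Python 3.11.15, numpy 2.4.6, scipy 1.17.1, pandas 2.3.3 and matplotlib 3.10.9 were used. Some genes that this rule names are not reported here.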

Additional observations from a re-analysis of the deposited data

How the results depend on the processing

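The number of members went from 134 to 52 with 3 or more markers required and to 55 with no neuronal gene allowed. The share of members with a Mki67 UMI was 73.1%, and 53.0% after thinning to 1000 UMIs. The Klf1 share was 56.0%, 35.1% after thinning and 26.9% when 2 UMIs were needed. The share of hormone-bearing members was 7.46%, and 0% with 3 or more markers, 1.85% with Pbk left out of the markers, 3% with the marker limits applied after thinning, 1.82% with no neuronal gene allowed and, by construction, 0% without those members. Genes called higher than the rest numbered 2835, 1696 with the mean of each barcode's CPM, 7786 without the filter on low genes and 4947 with no neuronal gene allowed. The share of members with 10% globin or more was 32.8%, 20.6% without members that met the erythroid set's rule and 15.4% with 3 or more markers. Causes were not tested. Of 118 values under alternatives, 85 stayed within the range allowed for the value reported (its counting interval, or a fixed fold for counts). Leaving out the hormone-bearing members, those of the erythroid rule or the 4 deepest members, and shares of genes seen after thinning, were chosen after seeing the data. No paired analysis was possible because barcodes do not name their sample, and with 1 pooled sample no replicate could be left out.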

Other observations

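Families of the marker genes were also looked at. Vamp8, an endosomal relative of Vamp5, was seen in 50 members at 234 CPM, against 251 in the erythroid set, 148 in the precursor B set and 23.3 in the neuron set. Of the Myb family, Mybl2 was seen in 6 members, and of the E2F family, E2f4 was seen in 20. The ribosomal protein genes took a median of 19.6% of the UMIs of a member, against 17.3% in the precursor B set, 3.55% in the neuron set and 1.53% in the erythroid set. Of non-globin UMIs the medians were 20.4% in members and 3.48% in the erythroid set.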
